A study of Mus musculus with 12 samples.

Results

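The protein parts of the cytosolic ribosome are encoded by a large family of genes that most cells keep at high messenger RNA levels. Described here are the 67 genes of the authors' mouse forebrain expression table whose symbol is Rpl or Rps followed by a number, with or without a closing a, out of 12158 genes in the table. Of these, 40 encode proteins of the large ribosomal subunit (Rpl) and 27 proteins of the small subunit (Rps). A filter on low values, a mean above −2 log2 RPKM over all libraries, kept 12102 genes and all 67 ribosomal protein genes, called members below where they are set against other genes. RPKM is the read count of a gene per kilobase of its length, scaled to the reads of the library, so levels of different genes can be set side by side on this scale.

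Bulk forebrain was dissected from mice heterozygous for the germline del5 allele of the chromatin remodeller gene Chd8 (Chd8+/del5) and from their wild-type (WT) littermates, all of strain C57BL/6N. The stages were the embryonic days named e12.5, e14.5 and e17.5, the day of birth (P0) and the adult, labelled P56. The labels list 10 RNA samples, 1 of each genotype at each of 5 stages, but the table has 44 columns, each a library: 8 at e12.5, 9 at e14.5, 10 at e17.5, 11 at P0 and 6 from adults. Column names show the stage, and their digit codes for other things go unexplained. The genotypes are therefore mixed within a stage, and heterozygous and wild-type animals were not compared. Libraries were made from polyadenylated RNA with its strand kept, and those of e12.5 were read as paired ends of 100 bp while the other 36 were read as single ends of 50 bp. Read type and the e12.5 stage therefore cannot be told apart. Values are medians over the libraries of a stage with the lowest and highest library in brackets, in log2 RPKM unless stated, and a gene is called higher or lower at a stage only when the ranges of the 2 stages do not overlap. No source ties a library to an animal, so the ranges cover the spread between libraries, which may be partly technical, and no p-value is given. The log2 values hold an unstated constant that keeps low genes off minus infinity, so differences of genes near the low end are understated.

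A ribosome needs a single copy of nearly every one of these proteins, and cells coordinate their output. In mammals much of that coordination is at translation: the messenger RNAs begin with a short stretch of pyrimidines (C or T in the gene), the 5′ terminal oligopyrimidine or TOP motif, through which the growth-sensing kinase mTOR and the RNA-binding protein Larp1 switch their translation on and off. Dividing progenitors of the embryonic brain make many ribosomes. These genes also have many processed copies elsewhere in the genome, near-identical sequences that can share reads with them, so that the value of a single gene depends on how the authors' counting treated reads with more than 1 match.

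Runs of pyrimidines were counted at the annotated gene starts. Starts came from RefSeq's table of promoters, on build GRCm38.p6 and not the mm9 build of the expression table. Of the 67 genes, 49 were matched there after any members on a single chromosome were set aside. The sets compared with them below were not cut in this way. In the 30 bases around the start (15 on each side, on the gene's own strand), 22 of the 49 genes, or 44.9%, had an unbroken run of at least 8 C or T, against 3760 of all 27025 genes of the table, or 13.9%. Among 66 matched genes of mitochondrial ribosomal proteins, 9 had such a run (13.6%). The windows below are given 5′ to 3′ with the longest run of C or T in capitals, first for 8 genes with a run and then for 4 with only short ones, chosen because their RNA levels are described further on.
Rpl7a (chr2:26910792-26910821, plus strand): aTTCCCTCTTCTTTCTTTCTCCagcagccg
Rpl27a (chr7:109519180-109519209, plus strand): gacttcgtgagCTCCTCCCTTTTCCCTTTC
Rps10 (chr17:27635230-27635259, minus strand): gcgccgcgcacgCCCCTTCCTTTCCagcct
Rpl4 (chr9:64173372-64173401, plus strand): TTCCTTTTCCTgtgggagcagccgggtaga
Rpl18 (chr7:45718056-45718085, plus strand): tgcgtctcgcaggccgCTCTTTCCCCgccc
Rps6 (chr4:86857353-86857382, minus strand): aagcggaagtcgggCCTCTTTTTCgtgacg
Rps26 (chr10:128626492-128626521, minus strand): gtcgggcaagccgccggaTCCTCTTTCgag
Rpl39 (chrX:37085208-37085237, minus strand): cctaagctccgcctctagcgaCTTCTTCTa
Rpl27 (chr11:101442230-101442259, plus strand): acgctctgTTCCTgtctgctgctcgtgctg
Rpl5 (chr5:107900513-107900542, plus strand): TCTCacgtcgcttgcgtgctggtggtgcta
Rpl11 (chr4:136053379-136053408, minus strand): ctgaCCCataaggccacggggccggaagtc
Rpl10 (chrX:74270801-74270830, plus strand): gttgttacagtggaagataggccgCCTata
Rpl7a had 21 pyrimidines in a row, Rpl27a 19 and Rps10 13, while the longest run was 4 in Rpl5 and 3 in both Rpl11 and Rpl10. A match is a description of letters near an annotated start, and its absence says only that these 30 letters hold no such run. Runs were counted wherever they lay in the window, also wholly before the annotated start. That of Rpl4 begins 15 bases before the start and ends before it. The counts are therefore not counts of TOP motifs.

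The labelled tissue was checked against markers of the cell types of the brain. None of 13 neuronal markers had a stage median below 0, and of 14 progenitor markers none did before adulthood and 6 did in adults. The summed RPKM of the progenitor markers had a median of 1653 (1468 to 2106) in e14.5 libraries, 1036 (925 to 1155) in those of P0 and 293 (224 to 604) in adults, in the same order as the ribosomal protein levels below. Of the 14, 12 were lower and 1 higher (Slc1a3, 1.42) at P0 than at e14.5, against 23.1% of all genes lower and 22.7% higher. In the adult against P0, 8 were lower and 2 higher (Hes1 and Slc1a3, each 0.82), against 25.2% of all genes lower and 29.3% higher. The summed RPKM of the neuronal markers was 1835, 2898 and 5565, with 8 of 13 higher and 0 lower at P0 than at e14.5, and, in the adult against P0, 10 higher and 3 lower (Dcx −5.59, Tubb3 −2.58 and Map2 −0.72). That of astrocytes was 183, 653 and 2407, and that of oligodendrocytes and myelin 54.9, 125 and 1646. Of 10 red cell markers listed, 5 were described. They summed to 3427 at e12.5, 234 at e14.5 and 16.8 at e17.5, and 4 of 5 had a median below 0 from e17.5 on. The exception was Alas2, with medians of 3.66, 3.67 and 3.91 at these 3 stages. The globin gene Hbb-y stood at 11.13, 7.57 and −1.63, so the sum is not read as a number of red cells. Microglial markers summed to 61.3, 80.5 and 297 at e14.5, at P0 and in the adult, and those of endothelium to 133, 104 and 137. Adult library 1 stood apart, with a progenitor sum of 604 against at most 342 in the other 5 adult libraries and the lowest astrocyte (1560) and myelin (1009) sums of the 6, and adult results are also given without it. What part these shifts in markers have in the levels of ribosomal protein genes was not tested. In bulk tissue fewer cells of a type and less RNA per cell cannot be told apart.

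At e12.5 all 67 genes were abundant. Stage medians of the 67 genes ran from 5.97 (Rps15a) to 9.74 (Rps15, a protein beside the decoding site), with a median gene at 8.50, and all 67 stood among the top 10% of genes. In the 50 bp libraries the same family was spread over more than 10 log2 units: at e14.5 the lowest median was −1.62 (Rpl5), that of Rpl8 was 9.70 and that of Rpl4 9.32, with a median gene at 5.19 and 32 of 67 in the top 10%. The number in the top 10% was 24 at e17.5, 21 at P0 and 13 in adults, and the median gene stood at 4.61, 3.96 and 3.84. Over the same stages the median of all genes stayed between 3.63 and 3.69. Rpl4, Rpl8, Rps15 and Rps26 were among the 5 genes with the highest median over all 44 libraries, between 8.98 and 9.32, and the 5 with the lowest were Rpl5, Rps23, Rps13, Rpl24 and Rps16, between −1.60 and 0.10.

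**Figure D1:**
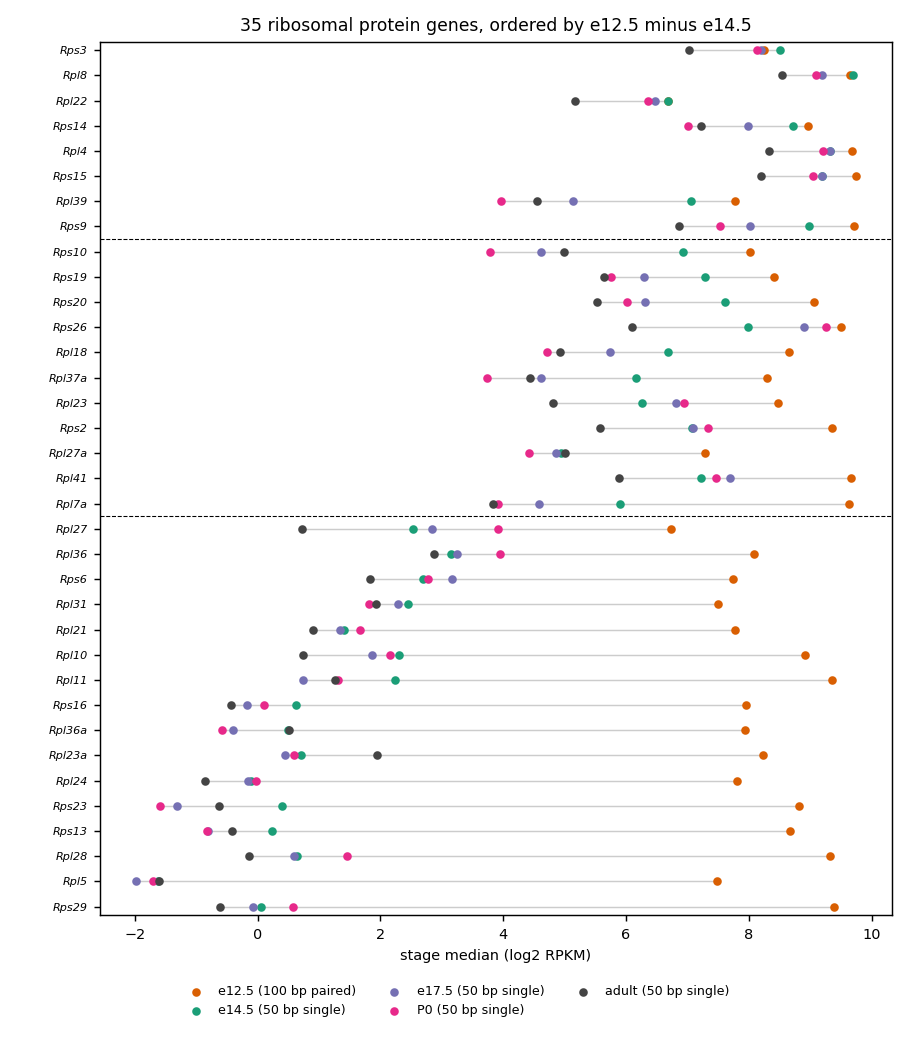
Stage medians (log2 RPKM, x axis) of 35 of the 67 ribosomal protein genes (rows), those named in the text by rule, ordered by the e12.5 minus e14.5 difference, with dashed lines where that difference reaches 1 and 4. The e12.5 points lie between 6.68 and 9.74, while the points of the 50 bp stages reach down to −1.98 in Rpl5.

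The summed share of the 67 genes in all described RPKM gave the same order of stages. It was 7.72% (7.17 to 8.35) at e12.5, 2.47% (2.23 to 3.19) at e14.5, 2.02% (1.63 to 2.28) at e17.5, 1.65% (1.30 to 1.86) at P0 and 0.789% (0.580 to 1.03) in adults. The e12.5 range stood above those of all other stages and the adult range below them, and the ranges of e14.5 and e17.5 and those of e17.5 and P0 overlapped.

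**Figure D2:**
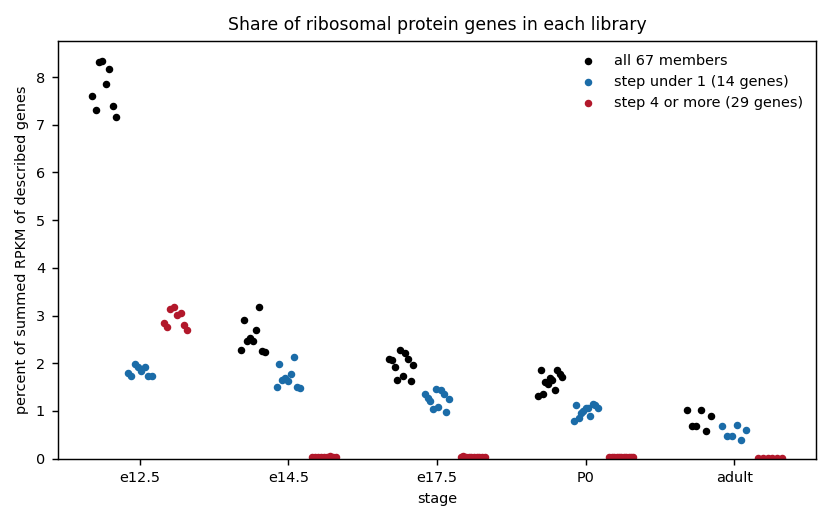
Percent of the summed RPKM of the 12102 described genes (y axis) held by ribosomal protein genes in each of 44 libraries, by stage (x axis): all 67 genes in black, the 14 genes with an e12.5 minus e14.5 difference under 1 in blue and the 29 with a difference of 4 or more in red. The black points fall from a median of 7.72% at e12.5 to 0.789% in adults, and the red ones lie near 0 at every stage but e12.5.

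From e12.5 to e14.5, the step at which the read type also differs, most ribosomal protein genes were lower. Of 67 genes, 57 were lower and 0 higher (5 higher after quantile normalization, Rps3 and Rpl8 among them), against 22.3% of all genes lower and 23.1% higher, with a median difference of −2.82 against 0.03 for all genes. The lower genes were 22 of 27 in the small subunit and 35 of 40 in the large one. The size of the difference varied widely. Rps29, a small zinc-binding protein of the small subunit, had 9.39 (9.11 to 9.60) at e12.5 and 0.05 (−1.28 to 0.98) at e14.5, a difference of −9.34. Rpl5, which carries the 5S ribosomal RNA into the large subunit, had 7.48 (7.35 to 7.70) and −1.62 (−3.11 to −0.42), and in e14.5 libraries stood among the lowest genes described. Rpl28 (−8.70), Rps13 (−8.43) and Rps23, a protein of the decoding centre (−8.43), differed by like amounts. Near the other end was Rps3, on the path of the messenger RNA through the small subunit, with an e14.5 median above that of e12.5 by 0.27. The differences of Rpl8, close to the catalytic centre (0.05), and of the RNA-binding Rpl22 (0.01) were smaller, and all 3 had overlapping ranges. No gene was lower at e12.5 by at least 1 with separate ranges, the class that had been planned for, so genes were instead sorted by how far e12.5 stood above e14.5. This sorting was chosen after the values were seen.

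By this difference, called the step below, 14 genes lay under 1, 24 from 1 to under 4 and 29 at 4 or more. Beside the boundary at 1 lay Rpl37 (0.96) below and Rpl35a (1.01) and Rpl15 (1.02) above, and beside the boundary at 4 lay Rpl7a (3.73) and Rpl13 (3.82) below and Rpl27 (4.20) and Rpl3 (4.53) above, so neither boundary falls in a wide gap. Steps this large were mostly found in ribosomal protein genes: of the 51 genes in the table with a step of at least 4, 29 were members (56.9%), and of the 29 with a step of at least 6, 22 were members (75.9%). A step of at least 4 was reached by 0.421% of all genes and 43.3% of members. Outside the 67, the largest steps included Gapdh (8.67), the glycolytic enzyme, Sumo2 (7.17), Atp5g2 (7.03), and further genes of ribosomal proteins such as Fau (6.89) and Rpsa (6.89). Mitochondrial ribosomal proteins, encoded by other genes, had no such step. Over 75 of them the e14.5 minus e12.5 differences lay between −0.89 and 0.92 with a median of 0.01. Of these, 9 were higher (12.0%) and 8 lower (10.7%), against 23.1% and 22.3% of all genes. Further lists described below had more genes lower than higher at e14.5. Lower were 8 of 11 other TOP genes (0 higher, median −1.19) and 25 of 52 ribosome biogenesis genes (0 higher, median −0.36). The initiation factor list had 18 of 36 lower and 4 higher (median −0.27), and the elongation factor list 5 of 10 lower and 2 higher (median −0.32).

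The number of processed copies that RefSeq names for a gene (its symbol with -ps) was set beside the step. Of the 14 genes with a step under 1, 7 had a named copy, with a median of 0.5 copies per gene and at most 8. Among the 24 genes from 1 to under 4, 20 had one (median 3.5, at most 14), and among the 29 genes at 4 or more, 26 had one (median 3, at most 23). Across the 67 genes the number of copies and the step had a Pearson r of 0.26 and a Spearman rho of 0.33, a description over genes that share libraries. Named copies are not all copies, and the part of shared reads in the step was not tested. A run of at least 8 pyrimidines in the window around the start was present in 5 of 10 matched genes with a step under 1, in 12 of 18 from 1 to under 4 and in 5 of 21 at 4 or more.

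The shares of the RNA held by the classes are given next. The classes were cut on the difference between e12.5 and e14.5. How far they differ in their change between those stages therefore follows from the sorting and is no separate result. Genes with a step under 1 held 1.82% of summed RPKM at e12.5 and 1.64% at e14.5. Genes with a step of 4 or more held 2.93% at e12.5 and 0.0357% at e14.5, and between 0.0181% and 0.0359% at the later stages. The median gene of the first class stood at 9.02 (8.88 to 9.17) in e12.5 libraries and at 8.60 (8.15 to 9.21) in those of e14.5, while that of the last stood at 8.40 (8.31 to 8.63) and 1.50 (1.10 to 1.91). Comparisons within the 50 bp stages are therefore given by class below. The classes were cut with the e14.5 libraries, which the comparisons with e14.5 share, so differences between classes there are described and not tested.

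From e14.5 to e17.5 part of the family was lower again. Of 67 genes, 17 were lower and 0 higher, against 12.1% of all genes lower and 13.1% higher, and the median difference was −0.40 against −0.03. The lower genes were 5 of 14 with a step under 1, 12 of 24 from 1 to under 4 and 0 of 29 at 4 or more. Rps10, a protein of the small subunit's beak, had the lowest difference, −2.31, followed by Rpl39, a small protein that lines the exit tunnel for the nascent chain (−1.91), Rps23 (−1.70, overlapping ranges) and the zinc-binding Rpl37a (−1.54). The 4 highest differences were all in overlapping ranges: Rps26 (0.90), Rpl23 (0.56), Rpl41 (0.48) and Rps6 (0.46). The count of 0 higher became 1 without e17.5 library 4 or without e17.5 library 8 and 2 without e14.5 library 7, and other scalings gave 1 or 2.

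Between e17.5 and birth few genes separated: 3 were lower, Rpl7a and Rpl7 among them, and 1 was higher (Rpl27), against 6.28% of all genes lower and 4.89% higher. The median difference was −0.14 against −0.00. The members' shares were 4.48% lower and 1.49% higher, both under those of all genes, but quantile normalization gave 6 lower, and without e17.5 library 7 the median difference was −0.08. Rpl27, a large subunit protein, had 2.84 (2.35 to 3.07) at e17.5 and 3.92 (3.59 to 4.20) at P0, with a gap between the ranges. Rpl39 (−1.18), Rpl18 (−1.03) and Rps14 (−0.97) were among the 4 lowest differences, but their ranges overlapped, while Rpl7a (−0.67) and Rpl7 (−0.82) differed by less with separate ranges. Rpl28 (0.86), Rpl36 (0.70) and Rps29 (0.66) were among the 4 highest differences, also with overlap. Without e17.5 library 2, the number higher was 2.

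Over the whole interval from e14.5 to P0, 26 of 67 genes were lower (38.8%) and 4 higher (5.97%), against 23.1% of all genes lower and 22.7% higher. Their median difference was −0.52 and that of all genes −0.04. The lower genes were 10 of 27 in the small subunit and 16 of 40 in the large one. By step, 8 of 14 genes under 1 were lower and 0 higher (median −0.56), 16 of 24 from 1 to under 4 were lower and 1 higher (median −1.13), and 2 of 29 at 4 or more were lower and 3 higher (median −0.15). In the last class the ranges of the other 24 genes overlapped.

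The genes with the lowest differences had intermediate levels at e17.5. Rps10 had 6.92 (6.43 to 7.41) at e14.5, 4.61 (3.97 to 5.23) at e17.5 and 3.78 (2.80 to 4.14) at P0. All its P0 libraries lay below all its e14.5 libraries, and the medians differed by −3.14. Rpl39 had 7.05 (6.54 to 7.80), 5.14 (4.40 to 5.97) and 3.96 (3.14 to 4.52) at these stages, a difference of −3.10 from e14.5 to P0. Rpl37a went from 6.16 (5.05 to 6.87) at e14.5 to 3.74 (3.22 to 4.15) at P0, a difference of −2.42. Rps23 differed by −1.99, but its P0 range (−2.22 to −0.10) overlapped that of e14.5 (−0.82 to 0.56). Rpl7a (−1.99), whose start holds the longest pyrimidine run printed above, Rpl18 (−1.97), Rps14 (−1.71), on the platform of the small subunit, Rps20 (−1.59), Rps19 (−1.53), whose loss causes an inherited anaemia in humans, and Rps9 (−1.44) were also lower with separate ranges.

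A smaller group ran the other way. Rps26, which contacts the messenger RNA near its exit channel, had 7.99 (7.82 to 8.63) at e14.5, 8.90 (8.63 to 9.29) at e17.5 and 9.25 (8.84 to 9.72) at P0, a difference of 1.26 with separate ranges. Its e14.5 library 7, at 8.63, stood nearest to the P0 libraries. Rpl27 went from 2.54 (2.20 to 3.07) to 3.92 (3.59 to 4.20), a difference of 1.38. The medians of Rpl36, 3.15 (2.71 to 3.64) and 3.95 (3.73 to 4.39), differed by 0.81. Those of Rpl28, 0.63 (−0.26 to 0.73) and 1.46 (0.74 to 1.89), differed by 0.83. In Rpl28 the lowest P0 library lay just above the highest e14.5 library, and after quantile normalization its ranges overlapped. Rpl23 differed by 0.69 and Rps2, at the entry of the messenger RNA channel, by 0.26, with overlapping ranges.

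**Figure D3:**
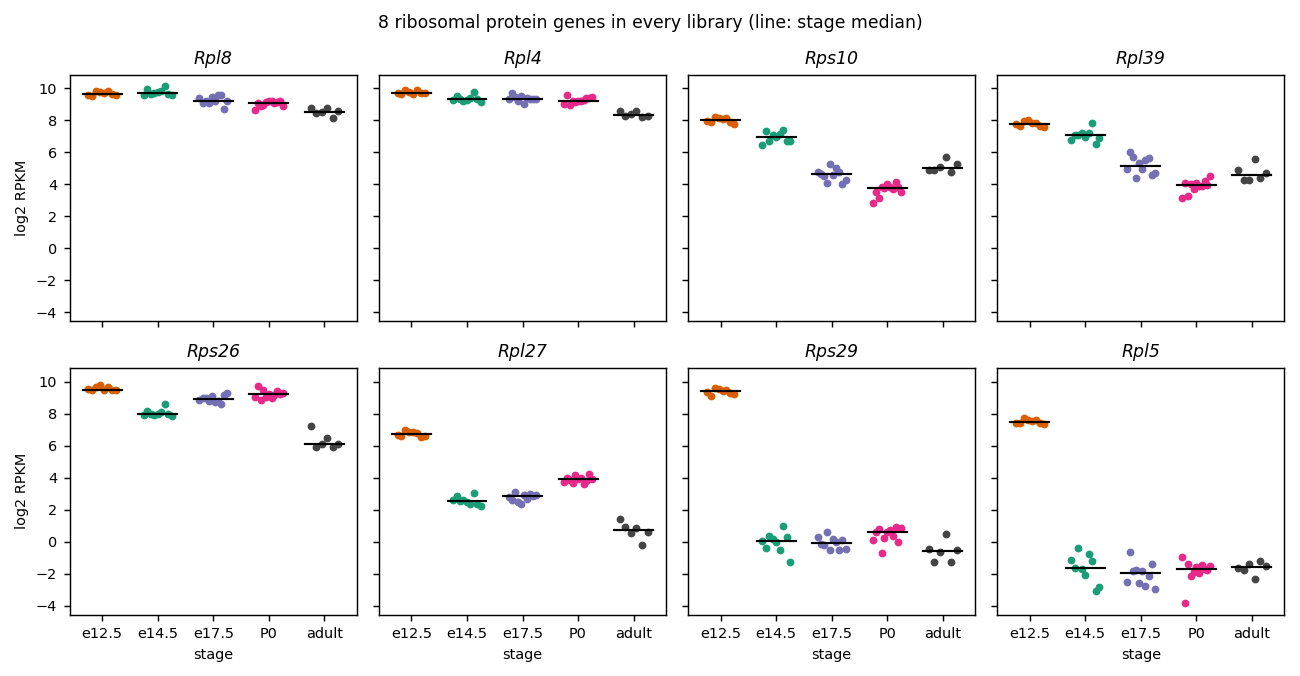
Level (log2 RPKM, y axis) of 8 ribosomal protein genes in each of 44 libraries by stage (x axis), with a line at the stage median. Rpl8 and Rpl4 stay above 7 in every library, Rps10 and Rpl39 are lowest at P0, Rps26 and Rpl27 are lowest in adults after a peak at P0 among the 50 bp stages, and Rps29 and Rpl5 are high only at e12.5.

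From birth to adulthood 20 of 67 genes were lower (29.9%) and 3 higher (4.48%), against 25.2% of all genes lower and 29.3% higher. The lower share was thus near that of all genes, the higher share far below it, and the median difference was −0.75 against −0.01. The e12.5 and e14.5 libraries that set the classes have no part in this comparison. By class, 5 of 14, 7 of 24 and 8 of 29 genes were lower, with medians of −0.87, −0.50 and −0.76. Rpl27 had the lowest difference, −3.20, from 3.92 at P0 to 0.72 (−0.20 to 1.39) in adults. Rps26 followed at 6.09 (5.89 to 7.21) in adults, a difference of −3.16. Next came Rpl23 at 4.81 (4.40 to 5.37), with −2.13, and Rps2 at 5.58 (5.34 to 6.04), with −1.75. Rps26, Rpl27, Rpl28 (−1.60) and Rpl36 (−1.08) are the genes that were higher at P0 than at e14.5, and in each the adult range lay wholly below that of P0. The P0 libraries serve both comparisons, so the 2 differences of these genes are not independent.

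Only Rpl23a, Rps10 and Rpl37a were higher in adults than at P0. Rpl23a, the docking site of the signal recognition particle at the tunnel exit, went from 0.59 (0.20 to 0.95) to 1.95 (1.37 to 2.41), a difference of 1.36. Rps10 went from 3.78 (2.80 to 4.14) to 4.99 (4.74 to 5.68), a difference of 1.22, and Rpl37a from 3.74 (3.22 to 4.15) to 4.43 (4.25 to 5.28), a difference of 0.69. The adult level of Rps10 still differed from that of e14.5 by −1.93, with separate ranges. Rpl36a (1.08) and Rps23 (0.97) had higher adult medians too, in overlapping ranges. Without adult library 1, 23 genes were lower and 3 higher, with a median difference of −0.77. Leaving out any 1 library gave between 20 and 24 lower and 3 or 4 higher genes.

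Set against e14.5, a comparison added after the data were seen, adult libraries had 43 of 67 genes lower (64.2%) and 0 higher, against 32.4% of all genes lower and 30.8% higher. The median difference was −1.24 against −0.10. Of genes with a step under 1, 13 of 14 were lower (median −1.46), of those from 1 to under 4, 21 of 24 (median −1.62), and of those at 4 or more, 9 of 29 (median −0.89). Rpl39 differed most (−2.50), then Rps9 (−2.12), Rps20 (−2.07) and Rpl7a (−2.06), and the lower gene nearest to 0 was Rps6 (−0.86). The count of 0 higher became 1 without e14.5 library 1 or without adult library 1, the gene in the latter case being Rpl23a, and without adult library 1 the lower genes numbered 45 and the median difference was −1.27. Genes that kept high levels throughout were also lower in adults: Rpl8 went from 9.70 (9.56 to 10.15) to 8.53 (8.16 to 8.76) and Rpl4, which reaches into the exit tunnel, from 9.32 (9.11 to 9.75) to 8.32 (8.16 to 8.57). Adult and e14.5 ranges were apart in both.

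**Figure D4:**
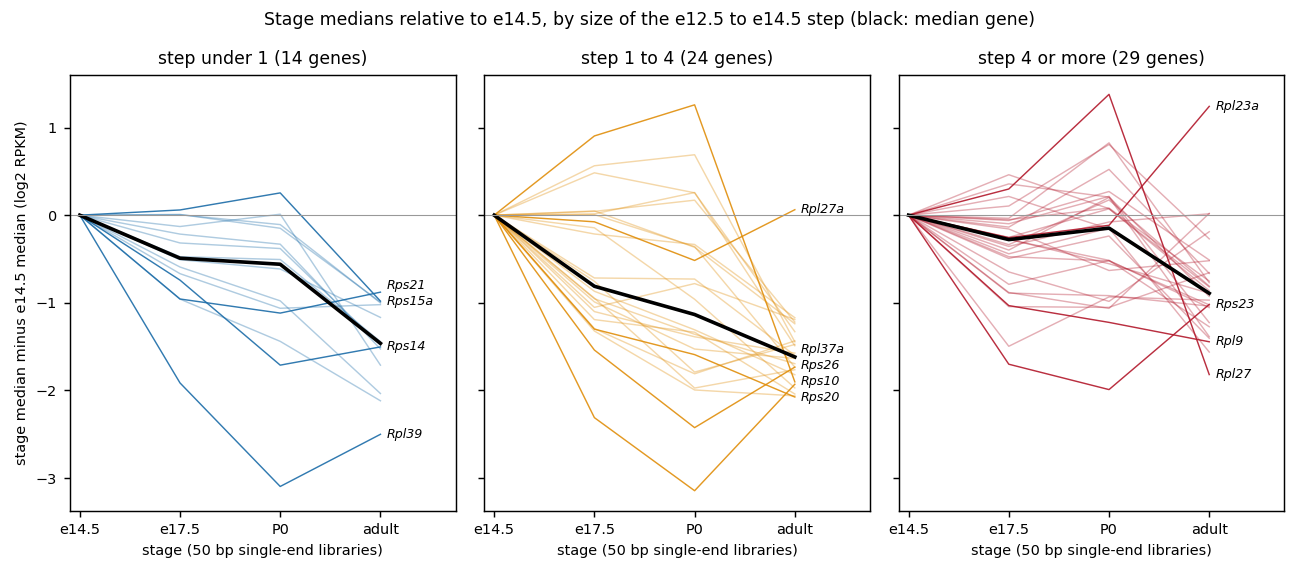
Stage median minus e14.5 median (log2 RPKM, y axis) of each of the 67 ribosomal protein genes over the 50 bp stages (x axis), in 3 panels by the size of the e12.5 to e14.5 step, with the median gene in black. At P0 the median gene lies at −0.56, −1.13 and −0.15 and in adults at −1.46, −1.62 and −0.89. Rps26, Rpl27 and Rpl28 lie above 0 at P0 and below 0 in adults.

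Several members are known for roles in signalling or disease. Rpl5 and Rpl11 carry the 5S ribosomal RNA and, when ribosome assembly is disturbed, bind Mdm2 and so stabilise p53, and Rpl23 binds Mdm2 too. Rpl5 stood near the low end of the table in the 50 bp stages (medians between −1.98 and −1.61), where small differences are not interpreted, and had the smallest spread of stage medians, 0.37. Rpl11 had 9.35 at e12.5, 2.23 (1.57 to 3.10) at e14.5, 0.74 (0.24 to 1.96) at e17.5, 1.30 (0.78 to 1.64) at P0 and 1.26 (0.93 to 1.85) in adults, and the last 4 ranges were called apart in none of the comparisons. Rps6, the ribosomal target of the S6 kinases, had 7.74 at e12.5, 2.70 (2.50 to 3.27) at e14.5, 3.16 at e17.5 and 2.77 (2.49 to 3.45) at P0, and was lower in adults at 1.84 (1.48 to 2.15). Rpl10, which joins the large subunit late in its assembly, had 2.30 (1.76 to 2.57) at e14.5, 2.15 (1.92 to 2.71) at P0 and 0.74 (−0.26 to 1.22) in adults, where it was lower.

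Some of the named genes can be set side by side by where their proteins sit, a grouping made after the values were seen and not a full list of each site. Of those on the messenger RNA path, Rps3 (−0.38) and Rps2 (0.26) had overlapping ranges between e14.5 and P0, Rps9 (−1.44) was lower and Rps26 (1.26) was higher. In adults against P0, Rps3 (−1.10), Rps2 and Rps26 were lower, and Rps9 (−0.68) overlapped. Of the proteins along or around the exit tunnel, Rpl39 was lower at P0 than at e14.5, Rpl4 (−0.11), Rpl31 (−0.63) and Rpl23a (−0.12) overlapped, and in adults against P0 Rpl4 (−0.89) was lower, Rpl23a was higher, and Rpl39 (0.60) and Rpl31 (0.11) overlapped. Rpl41, the smallest ribosomal protein, and Rpl24, both at bridges between the subunits, differed by 0.26 and 0.08 at P0, with overlap, and in adults against P0 Rpl41 was lower (−1.58) and Rpl24 (−0.83) overlapped. Whether genes within such a group differ in course was not tested. The smallest spreads of stage medians over the 50 bp stages, after Rpl5, were those of Rpl27a (0.58), Rpl31 (0.63), Rpl21 (0.78) and Rpl24 (0.83). Rpl31, Rpl21 and Rpl24 have steps of at least 4 and lie low in these libraries, while Rpl27a lies higher, at 4.94 in e14.5 and 4.42 in P0 libraries.

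Other cytosolic ribosomal proteins, left out by the symbol pattern, were described in the same way. Of 11 such genes described, 7 were lower at P0 than at e14.5 and 0 higher (median −0.93), against 23.1% of all genes lower and 22.7% higher. In adults against e14.5, 6 were lower and 0 higher, against 32.4% and 30.8% of all genes. Rpl22l1, the paralog of Rpl22, stood at 5.90 at e14.5 and 3.19 at P0, and was higher in adults at 4.37. Rps27l, the paralog of Rps27, had medians of 5.58 and 3.23 at e14.5 and P0, and Rps4x of 6.95 and 4.89. Rack1, listed under its older symbol Gnb2l1, was lower in adults than at P0 by 1.49 on the log2 scale, and the stalk protein Rplp1 by 1.16. The 75 mitochondrial ribosomal proteins had 26 lower and 4 higher at P0 against e14.5, a share of 34.7% lower like that of the cytosolic genes (38.8%), with a smaller median difference of −0.22. In adults against P0 they had 10 lower and 10 higher, 13.3% each and under the 25.2% and 29.3% of all genes (median −0.08). Against e14.5, 18 were lower (24.0%) and 2 higher (2.67%), also under the 32.4% and 30.8% of all genes (median −0.31). Mrps14 went from 3.93 to 2.14 and back to 3.95 over e14.5, P0 and adult, and Mrps5 the other way, from 4.52 to 5.48 and 3.85.

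The ribosome also needs factors that start translation and a machinery that builds it. The 36 genes listed with the initiation factors include some inhibitors of initiation. Of the 36, 7 were lower at P0 than at e14.5 (Eif3e, Eif3m and Eif3i by −1.09, −1.06 and −0.93) and 1 higher. Their 19.4% lower was under the 23.1% of all genes, and their 2.78% higher was under the 22.7%. In adults against P0, 18 were lower (50.0% against 25.2% of all genes) and 1 higher (2.78% against 29.3%). Eif2s2 (−1.61), Eif2s3x (−1.45) and Eif3h (−1.45) were among the lower genes. Of 52 ribosome biogenesis genes, 11 were lower and 3 higher at P0 against e14.5. The 21.2% lower was near the 23.1% of all genes, and the 5.77% higher was under their 22.7%. In adults against P0, 23 were lower (44.2% against 25.2% of all genes) and 5 higher (9.62% against 29.3%), with the RNA helicase gene Ddx21 (−1.50), the nucleolar protein gene Nop58 (−1.35) and Nop14 (−1.17) the lowest. RNA polymerase I transcribes ribosomal RNA, and 13 genes of its subunits and of separate factors that work with it were described. Of these, 4 were lower at P0 against e14.5 (Polr1c −1.21 and Znrd1 −1.15 among them), 30.8% against 23.1% of all genes. In adults against P0, 2 were lower (Taf1d −1.34, Polr1e −0.92), or 15.4% against 25.2%, and in adults against e14.5 11 were lower, or 84.6% against 32.4%. None of these 13 was higher in those comparisons, against 22.7%, 29.3% and 30.8% of all genes.

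Elongation factors held both directions. Eef1a1 stood at 10.19 in e14.5 libraries, 9.88 in those of P0 and 8.23 in adults, while Eef1a2, the form of neurons and muscle, had 5.64, 7.83 and 9.66. Of the 10 genes listed with the elongation factors, 2 stood higher in adults against P0, Eif5a2 (2.01) and Eef1a2 (1.83), and 6 lower. Of all genes 29.3% were higher and 25.2% lower. Among the 6 were Eef1e1 (−1.14) and Eef2k (−0.90), which are not elongation factors themselves. Of 11 other genes with TOP messenger RNAs, 6 were lower at P0 than at e14.5 (54.5% against 23.1% of all genes). Among them were the intermediate filament gene Vim (−1.97), which is also on the list of progenitor markers, and the nucleolar gene Npm1 (−1.18). Another 2 were higher (18.2% against 22.7%), with a difference of 2.48 in Tpt1. In adults all 11 were lower than at e14.5, against 32.4% of all genes (median −1.45). Tpt1 stood at 4.40, 6.88 and 3.57 at e14.5, at P0 and in the adult, the same order as Rps26 and Rpl27. The 19 genes for signals and regulators of ribosome production had 2 lower and 4 higher at P0 against e14.5 (10.5% and 21.1%, against 23.1% and 22.7% of all genes), and 7 lower and 2 higher in adults against P0 (36.8% and 10.5%, against 25.2% and 29.3%). The 2 higher in adults were Mtor (0.67), the kinase itself, and Rptor (0.82), its partner in the complex, which were also higher against e14.5 (0.62 and 0.74). Myc went from 3.63 at e14.5 to 5.14 at P0 and 1.34 in adults, Mycn was at 5.48, 5.15 and 2.11, and Larp1 was higher at P0 than at e14.5 by 0.36.

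**Figure D5:**
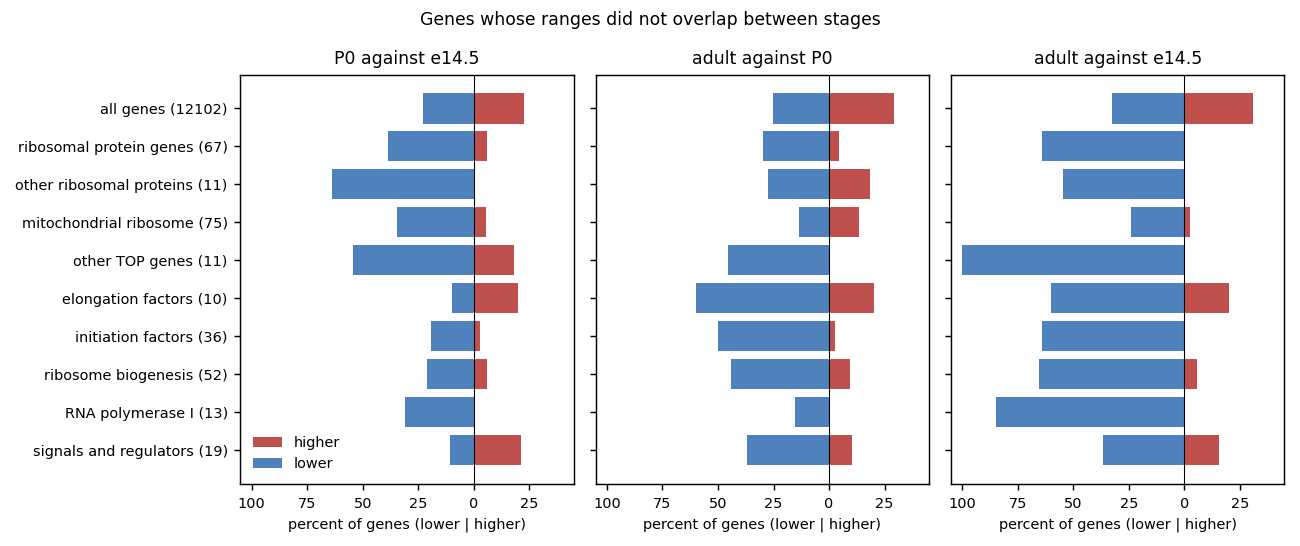
Percent of genes (x axis, lower to the left in blue and higher to the right in red) whose ranges did not overlap, for all described genes, the 67 ribosomal protein genes and 8 further lists (rows, number of genes in brackets), in 3 comparisons of 50 bp stages. In adults against e14.5, 64.2% of ribosomal protein genes were lower and 0 were higher, against 32.4% and 30.8% of all genes.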

How the data were processed

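RNA was measured in 44 forebrain libraries of 5 stages. The deposited values are log2 RPKM, which the labels call log RPKM, and base 2 was read from the values. Per the submitters' processing notes, reads were handled with STAR 2.4.2a among other tools and the build was mm9. How reads were counted, how those with several matches were treated and how libraries were scaled is not given in the sources used here. Library depth is not in the table, so no counting interval is given.

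Stages came from column names. No column could be matched to 1 labelled sample, so the planned heterozygous against wild-type comparison was not run. Medians and ranges per stage were computed with Python 3.11.15, pandas 2.3.3, numpy 2.4.6 and matplotlib 3.10.9 over 12102 genes, which leaves out 56 with a mean no higher than −2 log2 RPKM. A gene was called when the ranges of 2 stages did not overlap, and the calls over all genes gave the background. The calling was tested on simulated data. Genes were named by rule. From each comparison, the added one of adults against e14.5 included, came the 4 highest and 4 lowest differences. The rule also took the 5 highest and lowest levels and the 5 smallest and largest spreads over the 50 bp stages. Added to these were 8 genes chosen by role and up to 3 genes per further list. Some genes that the rule takes are left unreported, while counts include them. Alternatives were other scalings, other filters, each library left out, and subsets of e17.5. The members and lists were chosen with earlier results of these data known. The ChIP-seq peak list was not used here.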

Additional observations from a re-analysis of the deposited data

Results flagged for a closer look

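In 164 sets of libraries (41 items, each in the stages with 4 to 10 libraries), 7 had 1 library far from the others by Dixon's criterion, where chance would give about 1 in 20 sets, or 8.2. The 11 P0 libraries were not searched. In e17.5 library 2 the median of genes with an e12.5 to e14.5 step of at least 4 was 1.89, with the next library at 1.16, and Rpl10 was at 3.31 with the next at 2.10. In e14.5 library 7, Rps26 was at 8.63 (next 8.16) and Rps6 at 3.27 (next 2.76). In e14.5 library 8, Rps23 was at −0.82 (next 0.03). Rpl37a was at 5.28 in adult library 4 (next 4.56), and Rpl36a at −0.42 in adult library 1 (next 0.28).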

How the results depend on the processing

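No median difference reversed its direction under any alternative run, and neither did any named gene that had been called. The runs were median centring, quantile normalization, no filter, a mean of at least 1 log2 RPKM, or a library left out. Changes of sign in genes with overlapping ranges were not looked for. Quantile normalization gave 5 members higher and a median difference of −2.51 for e14.5 against e12.5, 2 higher for e17.5 against e14.5 and 6 lower for P0 against e17.5. Median centring gave 1 higher for e17.5 against e14.5. Chosen after seeing the data, the first 5 or the last 5 of the e17.5 libraries gave 1 higher each for e17.5 against e14.5, and the last 5 gave 3 higher for P0 against e17.5. Leaving out 1 library at a time, the numbers higher, the numbers lower and the median differences were 0 to 0, 57 to 59 and −2.83 to −2.79 for e14.5 against e12.5, 0 to 2, 17 to 21 and −0.48 to −0.39 for e17.5 against e14.5, 1 to 2, 3 to 4 and −0.18 to −0.08 for P0 against e17.5, 4 to 5, 26 to 27 and −0.53 to −0.48 for P0 against e14.5, 3 to 4, 20 to 24 and −0.77 to −0.63 for adult against P0, and 0 to 1, 43 to 47 and −1.35 to −1.17 for adult against e14.5. The cause of these shifts was not tested. Of 1140 values for named genes, 24 became calls and 1, Rpl28 in P0 against e14.5 under quantile normalization (0.77), stopped being one. The planned class of members lower at e12.5 held 0 genes with a limit of 1 or 0.5 and under both other scalings, so leaving it out removed no gene. No paired analysis was possible because the columns carry no replicate numbers that the labels explain. Library depth is unknown, so the number of reads behind a low value is too.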
